A study of Mus musculus with 35 samples.

Results

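The 10 genes described here are regulators of the G1 phase of the cell cycle: the D cyclins *Ccnd1*, *Ccnd2* and *Ccnd3*, the E cyclins *Ccne1* and *Ccne2*, the inhibitors of cyclin-dependent kinases *Cdkn1b*, *Cdkn2a* and *Cdkn2b*, the pocket protein gene *Rbl2* and the kinase gene *Lats2*. They were taken by symbol from a table of 26127 rows, where each had 1 row, and all 10 passed the filter for testing. Their levels came from total RNA-seq of mouse embryonic stem cells (ESCs) labelled with the background strain E14, whereas the study's methods describe the line as C57BL/6. The ESCs carried a *Dnmt1* gene flanked by loxP sites, which tamoxifen-induced Cre removes, and were grown in serum with LIF, with or without a layer of feeder cells. *Dnmt1* encodes the enzyme that copies DNA methylation to the new strand at replication. There were 17 libraries labelled as WT controls and 17 labelled *Dnmt1* KO, from 8 days (0, 1, 3, 6, 9, 11, 17 and 25) with 2 libraries per genotype and day, besides the third pair of day 1. A single further library came from *Dicer* KO cells of the same floxed line, made with CRISPR/Cas9 and picked as single-cell colonies, and its label gives no day.

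In G1 the D cyclins activate the kinases *Cdk4* and *Cdk6*, and the E cyclins activate *Cdk2*. The active kinases phosphorylate the pocket proteins (*Rb1*, *Rbl1* and *Rbl2*), which releases E2F factors and starts the S phase programme. The products of *Cdkn2a* and *Cdkn2b* bind the D cyclin kinases, p27 from *Cdkn1b* holds back cyclin E with *Cdk2*, and *Lats2* is a kinase of the Hippo pathway that restrains growth. ESCs are known for a short G1, for cyclin E that varies little through the cycle and for low levels of D cyclins and inhibitors. They are also known for miRNAs, the small RNAs made by *Dicer*, that share a seed and repress several brakes on the G1 to S step.

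Levels are given as RPKM, reads per kilobase of exon, scaled to the reads of the library. They can be compared between genes, and between libraries with a like share of reads in exons. Libraries had 24.3 to 72.1 mega-reads, of which 5.20 to 18.0 mega-reads fell in exons. This exon share was 20.7% to 22.4% in 20 libraries (days 0, 3, 6 and 9 and the first 2 pairs of day 1) and 44.7% to 49.9% in the other 15, so a difference in level between days 0 to 9 and days 11 to 25 cannot be told apart from the set. At day 0 *Dnmt1* RNA had not fallen, with 18.3 and 18.4 RPKM in WT and 18.7 and 18.5 RPKM in libraries labelled KO. In the first 2 pairs of day 1 the KO libraries had 2.86 and 3.04 RPKM. *Dnmt1* had 14.1 to 34.8 RPKM in WT and 2.58 to 4.40 RPKM in KO libraries of days 3, 9, 11, 17 and 25. At day 6 the libraries labelled WT had 3.22 and 3.40 RPKM of *Dnmt1* and those labelled KO 20.2 and 20.4 RPKM, which contradicts all 4 labels, and directions at day 6 are those of the libraries as labelled. In the third day 1 pair, which lay in the set of high exon share, KO had 8.13 RPKM against 19.5 RPKM in WT, and this pair was left out of the fit. The 9 ESC markers summed to 659 to 1932 RPKM over all other WT and *Dnmt1* KO libraries. The 13 fibroblast markers, which feeder cells express, summed to 8.39 to 57.0 RPKM in libraries of days 0 to 9, to 1.36 to 3.29 RPKM at days 11 to 25 and to 298 RPKM in the *Dicer* KO library.

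Among WT libraries of days 11, 17 and 25, *Ccne1* was the most abundant of the 10, with a median of 53.3 RPKM and a range of 26.7 to 59.3 RPKM. *Ccnd1* followed with 17.8 RPKM (6.001 to 22.2) and *Ccnd3* with 16.2 RPKM (10.2 to 19.3), and these ranges overlapped. *Ccne2*, the second E cyclin, had a median of 6.64 RPKM and a range of 4.90 to 9.47 RPKM. *Cdkn1b* (2.10 RPKM, 1.64 to 3.70) and *Lats2* (1.82 RPKM, 1.39 to 1.90) were lower and overlapped. *Cdkn2a*, *Rbl2*, *Cdkn2b* and *Ccnd2* had medians of 1.14, 0.970, 0.670 and 0.652 RPKM, again with overlapping ranges. In the 8 WT libraries of days 0 to 9 other than day 6, *Ccne1* was also at the top with a median of 13.2 RPKM, near *Ccnd3* with 11.5 RPKM. The G1 cyclins of high level were therefore *Ccne1*, *Ccnd1* and *Ccnd3*. The inhibitors of the *Cdkn2* locus were represented by few reads in these WT libraries, 21 to 84 for *Cdkn2a* and 24 to 91 for *Cdkn2b*. Over all 35 libraries the ranges were 18 to 324 and 19 to 274 reads, with the highest in *Dicer* KO.

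**Figure D1:**
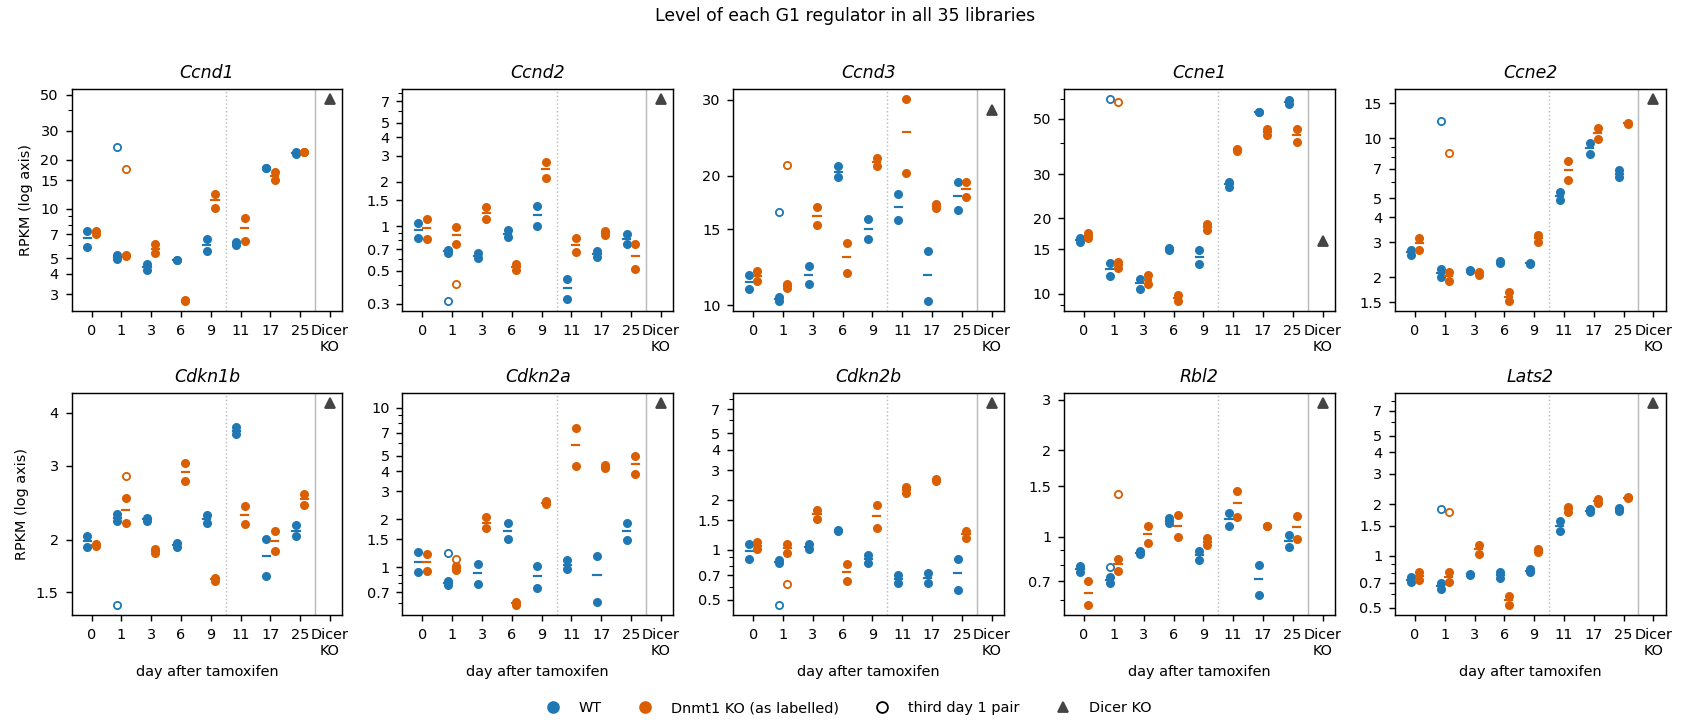
RPKM on a log axis against the day for each of the 10 genes, with WT and *Dnmt1* KO libraries as points, group means as short lines (the third day 1 pair, open symbols, left out), the *Dicer* KO library as a triangle, and a dotted line between the days of low and of high exon share. *Cdkn2a* and *Cdkn2b* lie higher in KO than in WT from day 3 on, except at day 6, where the labels run against *Dnmt1*, and 9 of the 10 genes have a *Dicer* KO value above all 6 WT libraries of days 11, 17 and 25.

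The main comparison asked how the 10 genes differed between *Dnmt1* KO and WT at each day. Differences are on the scale log2(RPKM + 0.1), with the SE pooled over 32 libraries, and a gene was called at a limma adjusted p below 0.05 over 11594 genes. At day 0 the libraries labelled KO still held *Dnmt1* RNA at the WT level. No gene of the 10 was called at this day, where 0% of all genes tested were called. None of the 10 had an unadjusted limma p below 0.05. At day 1 none was called either, against 0.285% of all genes, and again 0 of the 10 had an unadjusted p below 0.05 (825 of all genes). Voom on the recovered reads also called 0 members at both days. Of all genes, 0.216% were called higher and 0.069% lower on day 1. On day 3, 5 members were called higher and 0 lower, beside 11.9% of all genes called (7.77% higher, 4.16% lower). Day 9 gave 8 members higher and 1 lower, beside 28% of all genes (17.13% higher, 10.9% lower). Day 11 gave 7 members higher and 1 lower, beside 35.8% (23.2% higher, 12.7% lower). On day 17 the members were 4 higher and 1 lower, beside 41% (29.3% higher, 11.7% lower). Day 25 had the same member counts, beside 66% (39.8% higher, 26.2% lower). The count of members called was thus above the background share at days 3, 9 and 11. At days 17 and 25 it was 5 of 10, close to the background of day 17 and below that of day 25. The 10 genes were chosen with earlier results of these data known, so a count above background is a description and not independent evidence. The median difference of the 10 genes was 0.40 on day 3, 0.46 on day 9, 0.43 on day 11, 0.33 on day 17 and 0.18 on day 25, beside medians of all genes of 0.02, 0.02, 0.07, 0.09 and 0.13.

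Averaged over days 3, 9, 11, 17 and 25, 8 of the 10 were higher in KO, *Cdkn1b* was lower and *Ccne1* was not called, against 58.5% of all genes called (37.8% higher, 20.7% lower). The calls depended on leaving out the third day 1 pair. With it in the fit, the count of members called was 0 at day 3, 1 at day 9, 3 at day 11, 2 at days 17 and 25 and 4 for the mean of these days. The share of all genes called fell with it, to 0.663% on day 3, 3.29% on day 9, 5.62% on day 11, 10.4% on day 17, 20.9% on day 25 and 18.9% for the mean. The 4 members were *Ccnd2*, *Ccnd3*, *Cdkn2a* and *Cdkn2b*. Nothing in the labels says that libraries of a group came from separate cultures, so p-values measure only the spread between these libraries, which may be technical.

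**Figure D2:**
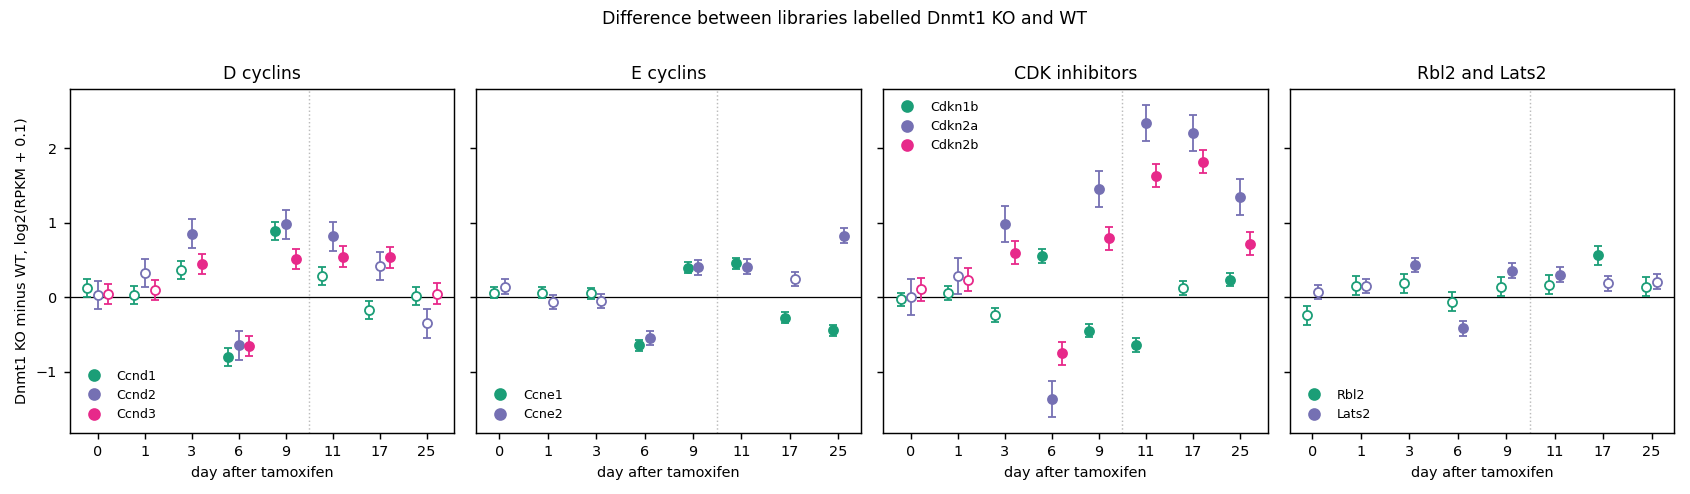
Difference of libraries labelled *Dnmt1* KO minus WT on the log2(RPKM + 0.1) scale against the day, in panels by role, with bars of 1 SE from limma and filled points for an adjusted p below 0.05. *Cdkn2a* reaches 2.34 at day 11 and *Cdkn2b* 1.82 at day 17, and the points of day 6 lie on the other side of 0 for most genes.

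*Cdkn2a* had the largest difference of the 10 at days 3, 9, 11, 17 and 25. It encodes p16Ink4a, which inhibits *Cdk4* and *Cdk6*, and p19Arf, which stabilises p53, from alternative first exons on chromosome 4 (88920377 to 88940557 of NCBIM37, minus strand), and the row sums both transcripts. At day 0 it had 1.24 and 0.931 RPKM in WT and 1.22 and 0.953 RPKM in KO. At day 3 it had 1.05 and 0.787 RPKM in WT and 1.75 and 2.06 RPKM in KO, while day 9 gave 1.02 and 0.738 RPKM against 2.50 and 2.59 RPKM. At day 11 there were 0.973 and 1.11 RPKM in WT and 7.45 and 4.32 RPKM in KO. Both KO libraries lay above both WT libraries at each of days 3, 9, 11, 17 and 25, while the values of day 0 overlapped. At day 17 the values were 0.606 and 1.18 RPKM in WT against 4.39 and 4.17 RPKM in KO, while day 25 gave 1.48 and 1.89 RPKM against 5.03 and 3.85 RPKM. The difference (SE 0.244) was 0.98 on day 3, 1.45 on day 9, 2.34 on day 11, 2.21 on day 17 and 1.34 on day 25, and the limma adjusted p-values were 0.0101, 0.0001312, 2.113e-07, 2.524e-07 and 6.754e-05 in that order. As folds of RPKM + 0.1 these were 5.07 on day 11 and 4.61 on day 17.

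*Cdkn2b*, the neighbouring gene on the same strand (88952198 to 88956941), encodes p15Ink4b, another inhibitor of the D cyclin kinases. It had 1.09 and 0.874 RPKM in WT and 1.01 and 1.11 RPKM in KO at day 0. At day 3 it had 1.08 and 1.01 RPKM in WT and 1.74 and 1.53 RPKM in KO, while day 9 gave 0.924 and 0.827 RPKM against 1.85 and 1.36 RPKM. The KO libraries were above WT at both days. At day 11 it had 0.707 and 0.634 RPKM in WT and 2.37 and 2.20 RPKM in KO, while day 17 gave 0.727 and 0.626 RPKM against 2.60 and 2.68 RPKM. At day 25 the KO libraries had 1.18 and 1.29 RPKM, with 0.574 and 0.873 RPKM in WT. As for *Cdkn2a*, the 2 genotypes did not overlap from day 3 on. The difference (SE 0.156) was 0.60 on day 3, 0.79 on day 9, 1.63 on day 11, 1.82 on day 17 and 0.72 on day 25, and the limma adjusted p-values were 0.01402, 0.0006498, 5.729e-08, 5.678e-09 and 0.0004106 in that order. The calls of *Cdkn2a* and *Cdkn2b* at days 9, 11, 17 and 25 stayed when any single library of these days was left out, and those of days 11, 17 and 25 also with the third day 1 pair in the fit. At day 3 *Cdkn2b* lost its call without WT replicate 1, KO replicate 1 or WT replicate 2, and *Cdkn2a* without replicate 2 of either genotype.

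Since *Dnmt1* acts on CG dinucleotides, the promoters of this locus are shown, with each CG in capitals. They are RefSeq windows of GRCm38.p6, 250 bases before to 50 after the start, on the minus strand, and they are not in the coordinates of the expression table. The first window of *Cdkn2a*, chr4:89294570-89294869, belongs to the upstream start, and the second, chr4:89282143-89282442, to the downstream start. That of *Cdkn2b* is chr4:89310983-89311282.
Cdkn2a upstream start: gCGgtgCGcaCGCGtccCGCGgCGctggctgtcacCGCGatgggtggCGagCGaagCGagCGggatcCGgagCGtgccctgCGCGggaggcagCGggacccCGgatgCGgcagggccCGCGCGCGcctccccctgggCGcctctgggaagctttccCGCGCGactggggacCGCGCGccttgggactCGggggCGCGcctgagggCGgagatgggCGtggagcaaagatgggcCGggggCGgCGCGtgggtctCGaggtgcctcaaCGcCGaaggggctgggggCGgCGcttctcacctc
Cdkn2a downstream start: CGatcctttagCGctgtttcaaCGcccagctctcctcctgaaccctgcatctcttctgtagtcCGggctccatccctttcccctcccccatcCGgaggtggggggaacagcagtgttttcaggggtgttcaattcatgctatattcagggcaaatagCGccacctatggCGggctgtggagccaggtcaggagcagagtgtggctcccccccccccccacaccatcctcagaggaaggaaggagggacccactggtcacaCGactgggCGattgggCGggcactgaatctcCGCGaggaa
Cdkn2b start: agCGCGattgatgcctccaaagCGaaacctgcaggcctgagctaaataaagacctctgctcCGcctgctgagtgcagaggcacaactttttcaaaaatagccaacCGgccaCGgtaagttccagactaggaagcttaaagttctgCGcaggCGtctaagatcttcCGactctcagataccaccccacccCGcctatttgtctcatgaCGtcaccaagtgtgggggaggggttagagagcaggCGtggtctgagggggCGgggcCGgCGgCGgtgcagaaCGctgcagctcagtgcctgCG

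The upstream *Cdkn2a* window held 45 CG dinucleotides, a number reached by 1.93% of 32851 windows of this length in the mouse, whose median was 7. The downstream *Cdkn2a* window held 12 and the *Cdkn2b* window 18, reached by 39.6% and 29.7% of windows. Of the other members with a window, *Ccne1* held 41, *Cdkn1b* 30 and *Rbl2* 14. *Lats2* held 37 and 4 in its 2 windows, and *Ccnd3* 15 and 28. Methylation of these windows was not analysed here, and which start the *Cdkn2a* reads came from cannot be told from the table.

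Markers of other cells moved with genotype, and at the early days the largest sums among them were those of fibroblasts. The fibroblast sum was 14.7 to 17.03 RPKM in WT and 27.7 to 28.5 RPKM in KO at day 3, and 21.3 to 25.23 RPKM against 50.02 to 57.0 RPKM at day 9. Of the 8 of these 13 markers that were tested, 5 were called higher in KO at day 3 and 7 at day 9, and none lower. Of all genes, 11.9% and 28% were called at these days. At days 11, 17 and 25 the sum was at or below 3.29 RPKM in all 12 libraries, and *Col1a1*, *Col1a2*, *Col3a1* and *S100a4* reached at most 0.112, 0.0296, 0.0238 and 0.667 RPKM. Of the 8 tested, 3 were still called higher and 1 lower in KO on day 11, 3 and 0 on day 17, and 2 and 1 on day 25. Among all genes, 35.8%, 41% and 66% were called at these days. The fibroblast totals of days 11 and 17 lay near these shares and that of day 25 below. The 4 trophoblast markers summed to 0.0812 to 0.142 RPKM in WT and 0.650 to 1.46 RPKM in KO at day 11, and to 0.461 to 0.583 RPKM against 1.87 to 2.26 RPKM at day 17. At day 25 the order was the other way, with 1.04 to 1.26 RPKM in WT and 0.239 to 0.416 RPKM in KO. At day 9 that sum was 0.0206 to 0.0570 RPKM in WT and 0.268 to 0.289 RPKM in KO. The 1 trophoblast marker tested was called higher in KO at days 3, 9, 11 and 17 and lower at day 6. The 5 primitive endoderm markers summed to 1.48 to 1.58 RPKM in WT and 3.05 to 3.08 RPKM in KO at day 9. Of the 2 tested, 2 were called higher at day 9 and 1 at day 17, and 1 was called lower at day 6 and 1 at day 25. The 1 mesoderm and neuroectoderm marker tested was called higher at days 3, 6 and 17 and lower at day 25. Of the 9 ESC markers, 2 were called lower in KO at day 3, 3 at day 9 and 3 at day 11, with none higher at these days. On day 17, 4 were called higher and 4 lower, and on day 25, 6 higher and 2 lower. The totals of days 9 and 11 lay near the share of all genes called, and those of days 17 and 25 above it. The part of these cells in the differences of *Cdkn2a*, *Cdkn2b* and the other members was not tested. In bulk RNA, fewer cells that express a gene and less RNA of it per cell cannot be told apart.

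**Figure D3:**
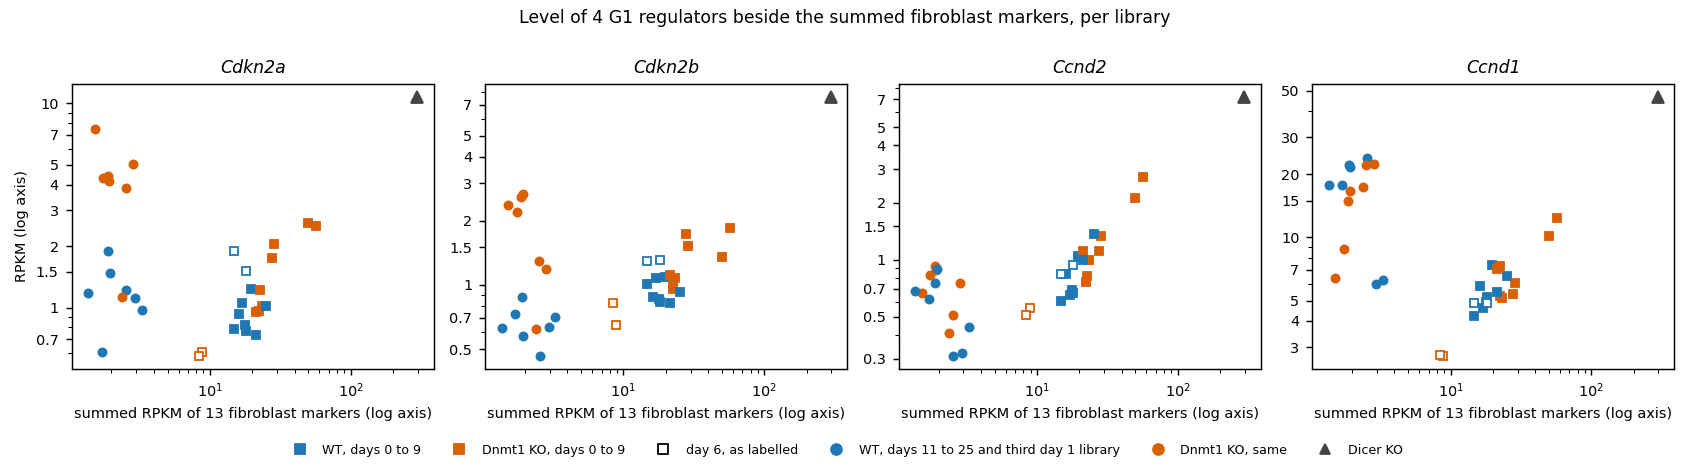
RPKM of *Cdkn2a*, *Cdkn2b*, *Ccnd2* and *Ccnd1* in each library against the summed RPKM of 13 fibroblast markers, both on log axes, with squares for libraries of days 0 to 9 and circles for days 11 to 25 and the third day 1 pair. *Cdkn2a* in KO is between 3.85 and 7.45 RPKM at days 11 to 25, where the marker sum is at most 2.84 RPKM in KO, and the *Dicer* KO library stands apart at a sum of 298 RPKM.

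*Cdkn1b* ran against the other inhibitors at days 9 and 11. It had 2.29 and 2.19 RPKM in WT and 1.63 and 1.60 RPKM in KO at day 9. At day 11 it had 3.70 and 3.56 RPKM in WT, its highest values in any WT or *Dnmt1* KO group, and 2.41 and 2.18 RPKM in KO. The difference was -0.45 at day 9 (SE 0.0904, limma adjusted p 0.0007649) and -0.64 at day 11 (limma adjusted p 1.255e-05), with no overlap between genotypes at either day. At day 17 WT had 1.64 and 2.01 RPKM and KO 1.88 and 2.10 RPKM, a difference of 0.12 that was not called (limma adjusted p 0.2979). Without WT replicate 2 it was called (0.26, limma adjusted p 0.04053), and without WT replicate 1 it was -0.02. At day 25 it was slightly higher in KO, 2.57 and 2.42 RPKM against 2.17 and 2.04 RPKM (difference 0.24, limma adjusted p 0.02601). That call was lost without KO replicate 1 or WT replicate 2 of day 25 and in the fit of day 25 alone (limma adjusted p 0.1023). The call at day 11 was lost in the fit of day 11 alone (limma adjusted p 0.08922).

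*Ccnd1*, the D cyclin that responds to growth signals, was called by genotype at day 9 and differed by day in WT. WT had 4.60 and 4.22 RPKM at day 3 and KO 5.39 and 6.06 RPKM, without overlap. This difference of 0.37 was just outside the call (limma adjusted p 0.05133). It was called in the fit of day 3 alone (limma adjusted p 0.009084) and with a replicate block (limma adjusted p 0.04888). At day 9 it had 6.54 and 5.51 RPKM in WT and 12.4 and 10.2 RPKM in KO, a difference of 0.89 (SE 0.121, limma adjusted p 1.07e-05) with both KO libraries above both WT libraries. At day 11 WT had 6.29 and 6.001 RPKM and KO 6.40 and 8.84 RPKM, which was not called (difference 0.29, limma adjusted p 0.0687), and the value rested on the KO libraries. It was 0.52 without KO replicate 1 (limma adjusted p 0.001313) and 0.06 without KO replicate 2 (limma adjusted p 0.7371). At day 17 WT had 17.8 and 17.9 RPKM and KO 14.97 and 16.7 RPKM. The difference of -0.17 was not called (limma adjusted p 0.2818), but after median centring it was -0.35 and called (limma adjusted p 0.02015). At day 25 WT had 21.7 and 22.2 RPKM and KO 22.4 and 22.1 RPKM. *Ccnd1* was thus 3.53-fold higher in WT at day 25 than in WT at day 11 (log2 difference 1.82, limma adjusted p 5.57e-11), while the genotypes differed by 0.02 at day 25 (limma adjusted p 0.8984). In the third day 1 pair WT stood at 24.0 RPKM and KO at 17.4 RPKM, near the values of day 25 and not those of the other day 1 libraries (4.92 to 5.26 RPKM).

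*Ccnd2* was the lowest D cyclin, with 0.324 to 1.37 RPKM and 71 to 552 reads in the WT libraries in the fit outside day 6. At day 3 it had 0.654 and 0.608 RPKM in WT and 1.12 and 1.34 RPKM in KO (difference 0.86, SE 0.191, limma adjusted p 0.004715). At day 9 WT had 1.37 and 0.996 RPKM and KO 2.73 and 2.11 RPKM (difference 0.98, limma adjusted p 0.0005975). At day 11 the values were 0.442 and 0.324 RPKM in WT and 0.664 and 0.834 RPKM in KO (difference 0.82, limma adjusted p 0.002145). Both KO libraries were still above both WT libraries at day 17, with 0.622 and 0.683 RPKM in WT and 0.930 and 0.878 RPKM in KO. That difference of 0.42 was not called (limma adjusted p 0.08714). By day 25 the order had turned, with 0.888 and 0.756 RPKM in WT and 0.754 and 0.509 RPKM in KO, but this difference of -0.35 was not called (limma adjusted p 0.1119). It was -0.59 and called without KO replicate 1 (limma adjusted p 0.02595), and -0.11 without KO replicate 2 (limma adjusted p 0.6957). The call of day 3 was lost without replicate 2 of either genotype.

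*Ccnd3* was higher in KO at days 3, 9, 11 and 17. At day 3 it had 12.3 and 11.195 RPKM in WT and 15.3 and 16.9 RPKM in KO (difference 0.45, SE 0.136, limma adjusted p 0.03262). At day 9 it had 14.3 and 15.8 RPKM in WT and 21.1 and 22.01 RPKM in KO (difference 0.52, limma adjusted p 0.006679). At day 17 it had 10.2 and 13.3 RPKM in WT and 17.14 and 16.8 RPKM in KO (difference 0.53, limma adjusted p 0.003176), while day 25 had 19.3 and 16.6 RPKM against 17.8 and 19.3 RPKM (difference 0.05, limma adjusted p 0.7584). Its calls were lost when single libraries were left out. At day 3 the call was lost without any 1 of the 4 libraries, at day 9 without WT replicate 1 or KO replicate 2, and at day 17 without WT replicate 1 (difference 0.35, limma adjusted p 0.08855). At day 11 KO replicate 2 stood at 30.1 RPKM and KO replicate 1 at 20.3 RPKM, against 18.1 and 15.7 RPKM in WT, and the difference of 0.55 became 0.26 without KO replicate 2 (limma adjusted p 0.1111) and 0.83 without KO replicate 1. It was not called in the fit of day 11 alone (limma adjusted p 0.2281).

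The E cyclins parted between days 9 and 25. *Ccne1* had 14.9 and 13.2 RPKM in WT and 19.0 and 17.9 RPKM in KO at day 9 (difference 0.39, SE 0.0742, limma adjusted p 0.0004217). At day 11 it had 27.9 and 26.7 RPKM in WT and 37.7 and 37.1 RPKM in KO (difference 0.45, limma adjusted p 6.989e-05), a call that was lost in the fit of day 11 alone (limma adjusted p 0.1484). At day 17 the order was turned, with 53.3 and 53.3 RPKM in WT and 45.3 and 42.8 RPKM in KO (difference -0.27, limma adjusted p 0.005252), and this call was lost without KO replicate 2 (limma adjusted p 0.05984) and in the fit of day 17 alone (limma adjusted p 0.05415). At day 25 WT had 57.3 and 59.3 RPKM and KO 45.5 and 40.4 RPKM (difference -0.44, limma adjusted p 2.862e-05). The 2 genotypes did not overlap at any of these 4 days, and the differences of opposite sign left a mean over the days of 0.04 (limma adjusted p 0.3525).

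*Ccne2* was higher in KO at days 9, 11 and 25. It had 2.35 and 2.34 RPKM in WT and 3.27 and 2.998 RPKM in KO at day 9 (difference 0.40, SE 0.0987, limma adjusted p 0.004226), a call that was lost without KO replicate 1. At day 11 it had 4.90 and 5.37 RPKM in WT and 7.64 and 6.15 RPKM in KO (difference 0.41, limma adjusted p 0.002661). That difference was 0.26 without KO replicate 1, and the call was lost in the fit of day 11 alone (limma adjusted p 0.2371). At day 17 the values were 9.47 and 8.33 RPKM in WT and 9.91 and 11.24 RPKM in KO, a difference of 0.25 just outside the call (limma adjusted p 0.05036). It was called without WT replicate 1 or KO replicate 1 (both 0.34) and was 0.16 without either of the others. At day 25 WT had 6.36 and 6.92 RPKM and KO 11.8 and 11.9 RPKM, the largest difference of an E cyclin (0.83, limma adjusted p 4.673e-07), so that *Ccne2* was 1.78-fold higher and *Ccne1* 1.36-fold lower in KO at the last day.

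*Rbl2*, whose product p130 binds E2F factors in resting cells, was called at day 17, with 0.626 and 0.795 RPKM in WT and 1.09 and 1.09 RPKM in KO (difference 0.56, SE 0.129, limma adjusted p 0.00138). Fitted on day 17 alone the adjusted p was 0.05794. At the other days its difference lay between -0.24 at day 0 and 0.19 at day 3 and was not called. *Lats2* was higher in KO by 0.44 at day 3 (0.779 and 0.783 RPKM against 1.15 and 1.03 RPKM, SE 0.0973, limma adjusted p 0.004703), by 0.36 on day 9 (0.834 and 0.805 RPKM against 1.05 and 1.11 RPKM, limma adjusted p 0.00869) and by 0.31 at day 11 (1.39 and 1.60 RPKM against 1.93 and 1.81 RPKM, limma adjusted p 0.01806). The call of day 3 was lost without KO replicate 1, that of day 9 without replicate 2 of either genotype, that of day 11 without replicate 1 of either genotype, and that of day 11 also after median centring (difference 0.19, limma adjusted p 0.1297) and in the fit of day 11 alone (limma adjusted p 0.3983). At days 17 and 25 *Lats2* had 1.79 and 1.87 RPKM and 1.84 and 1.90 RPKM in WT, beside 2.16 and 2.04 RPKM and 2.19 and 2.16 RPKM in KO, and the differences of 0.19 and 0.21 were not called.

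The libraries of day 6, as labelled, gave 1 member higher in KO (*Cdkn1b*, 0.55) and 8 lower, against 28% of all genes called (9% higher, 19% lower). *Cdkn2a* had 1.89 and 1.51 RPKM in the libraries labelled WT, which held little *Dnmt1* RNA, and 0.607 and 0.581 RPKM in those labelled KO (difference -1.36, SE 0.244, limma adjusted p 0.0002437). *Ccnd1* had 4.86 and 4.85 RPKM in those labelled WT and 2.73 and 2.76 RPKM in those labelled KO (difference -0.80, limma adjusted p 3.824e-05). For each of the 9 genes called, the sign at day 6 was opposite to that at day 9. The fibroblast sum was 14.8 to 18.1 RPKM in the libraries labelled WT and 8.39 to 8.86 RPKM in those labelled KO.

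In WT alone, 2 of the 10 differed between days 9 and 0 (16.4% of all genes, with 8.63% higher and 7.74% lower) and 7 between days 25 and 11 (68.6%, with 35% higher and 33.6% lower). From day 11 to day 25 in WT, *Ccnd1* rose by 1.82, *Ccne1* by 1.09 (limma adjusted p 7.343e-11) and *Ccnd2* by 0.94 (limma adjusted p 0.0001821) on the log2 scale. *Cdkn1b* fell by 0.76 on the log2 scale over the same days (limma adjusted p 2.51e-07). *Cdkn2a* (0.64), *Ccne2* (0.36) and *Lats2* (0.31) were also called higher at day 25, and *Cdkn2a* lost that call without WT day 11 replicate 1 or WT day 25 replicate 2 and *Lats2* without WT day 11 replicate 1. After median centring *Cdkn2a* and *Lats2* lost their calls (limma adjusted p 0.05328 and 0.05917), and *Rbl2* was called lower at day 25 (-0.32, limma adjusted p 0.03347). With the third day 1 pair in the fit 3 calls were left, *Ccnd1*, *Ccnd2* and *Cdkn1b*, beside 28.7% of all genes. The 2 calls between days 9 and 0, *Ccnd3* (0.40) and *Ccne1* (-0.22), were lost under 4 other settings each, and also without any 1 of the 4 libraries for *Ccnd3* and without 3 of the 4 for *Ccne1*.

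The difference between KO and WT itself differed between days 25 and 9 for 6 of the 10 genes, against 49.1% of all genes (27.3% higher, 21.8% lower). It was lower at day 25 for *Ccnd2* (by -1.33), *Ccnd1* (-0.87), *Ccne1* (-0.84) and *Ccnd3* (-0.47), and higher for *Cdkn1b* (0.69) and *Ccne2* (0.43). For *Cdkn2a* the change was -0.11 (SE 0.345, limma adjusted p 0.8099) and for *Cdkn2b* -0.07 (SE 0.221, limma adjusted p 0.8093). Day 9 lies in the set of low exon share and day 25 in that of high exon share, so the 2 days differ in more than time and cannot be told apart from the set.

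The other genes of the G1 to S pathway were described from 5 lists with 67 genes tested. Among kinases and proteins of cyclin turnover, 4 of 15 were called higher and 1 lower on day 9, with 7 and 0 on day 11 and 7 and 4 on day 25. These totals of 5, 7 and 11 of 15 lay near the share of all genes called, 28%, 35.8% and 66%. *Cul1*, a scaffold of the SCF ubiquitin ligase, was higher by 0.50 on day 9 (limma adjusted p 0.0001032) and 0.43 on day 11 (limma adjusted p 0.000324). *Cdk4* was higher by 0.30 at day 9, 0.28 at day 11 and 0.23 at day 25, and *Cdk2*, the partner of cyclin E, by 0.18 at day 9 and 0.59 at day 25 (limma adjusted p 1.572e-07). *Cdk6* was not called at any day (differences between -0.21 and 0.24). *Cdc25a*, the phosphatase that activates *Cdk2*, was lower at day 25 (difference -0.88, limma adjusted p 2.034e-06), and *Ambra1*, which marks D cyclins for destruction, was higher at day 11 (0.67, limma adjusted p 0.001743) and lower at day 25 (-0.80, limma adjusted p 0.000115).

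Of the pocket protein, E2F and MuvB genes, 0 of 16 were called higher and 5 lower on day 9, with 1 and 2 on day 11 and 4 and 6 on day 25. Beside 28%, 35.8% and 66% of all genes, the totals of days 9 and 25 were near the background and that of day 11 was below it. *Rb1* was higher by 0.53 on day 3 (limma adjusted p 0.005046) and 0.94 on day 17 (limma adjusted p 2.028e-06) and lower at day 25 (-0.45, limma adjusted p 0.002528). *Rbl1* was lower at day 9 (-0.26, limma adjusted p 0.0438) and higher at day 25 (0.28, limma adjusted p 0.01415). The repressor E2Fs *E2f7* and *E2f8* had the largest differences of the list at day 25 (-1.89 and -1.76, limma adjusted p 4.395e-07 and 7.573e-07), while *Lin9* of the MuvB complex was higher (0.83, limma adjusted p 1.373e-08).

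Of the 5 other CDK inhibitors 3 were tested. *Cdkn1a*, which encodes p21, a p53 target, was called as early as day 1, with 1.31 and 1.70 RPKM in WT and 2.52 and 2.67 RPKM in KO (difference 0.76, SE 0.114, limma adjusted p 0.00193), while in the third day 1 pair WT stood at 5.58 RPKM and KO at 4.91 RPKM. It was higher by 0.86 at day 3, 0.67 at day 9 and 0.63 at day 11, and reached 18.9 and 18.7 RPKM in KO against 5.06 and 5.45 RPKM in WT at day 17 (difference 1.82, limma adjusted p 3.823e-11). At day 25 it had 11.8 and 11.9 RPKM in KO and 11.8 and 11.06 RPKM in WT (difference 0.05, limma adjusted p 0.7343). *Cdkn1c*, which encodes p57 and is imprinted, was higher at day 3 (0.77, limma adjusted p 3.32e-05) and lower on day 17 (-1.08, limma adjusted p 3.405e-08) and day 25 (-1.58, limma adjusted p 9.192e-11).

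Of 18 Hippo pathway genes, 3 were called higher and 1 lower on day 9, with 10 and 2 on day 17 and 4 and 10 on day 25, beside 28%, 41% and 66% of all genes called either way. The targets *Ankrd1* and *Cyr61* were higher by 1.42 and 0.77 at day 3 (limma adjusted p 0.0004333 and 2.009e-05), *Cyr61* by 1.47 at day 11 and 1.61 at day 17, and *Ankrd1* by 2.27 at day 25 (limma adjusted p 1.152e-07). The largest rises at day 25 after *Ankrd1* were those of *Stk3* (0.86) and *Mob1a* (0.71), and *Cyr61* was not among them. The coactivator gene *Yap1* was lower at day 25 (-1.71, limma adjusted p 6.989e-07), as were *Tead1* (-1.29, limma adjusted p 0.000232) and *Tead3* (-1.07, limma adjusted p 1.522e-06). *Lats1*, the paralogue of *Lats2*, was called only at day 25 (-0.30, limma adjusted p 0.04395). Of 15 S phase genes, 1 was called higher and 1 lower on day 9, with 11 and 3 on day 25 and a median of 0.44 at day 25 beside 0.13 for all genes, of which 28% and 66% were called at these days. *Mcm6*, *Mcm5* and *Mcm3* of the replicative helicase were higher (0.95, 0.87 and 0.68), and *Cdt1*, which loads it, was lower (-1.38, limma adjusted p 3.859e-06). *Mcm4* of the same helicase was also lower (-0.75, limma adjusted p 1.85e-05), as was *Rrm2* (-0.72, limma adjusted p 5.791e-07).

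**Figure D4:**
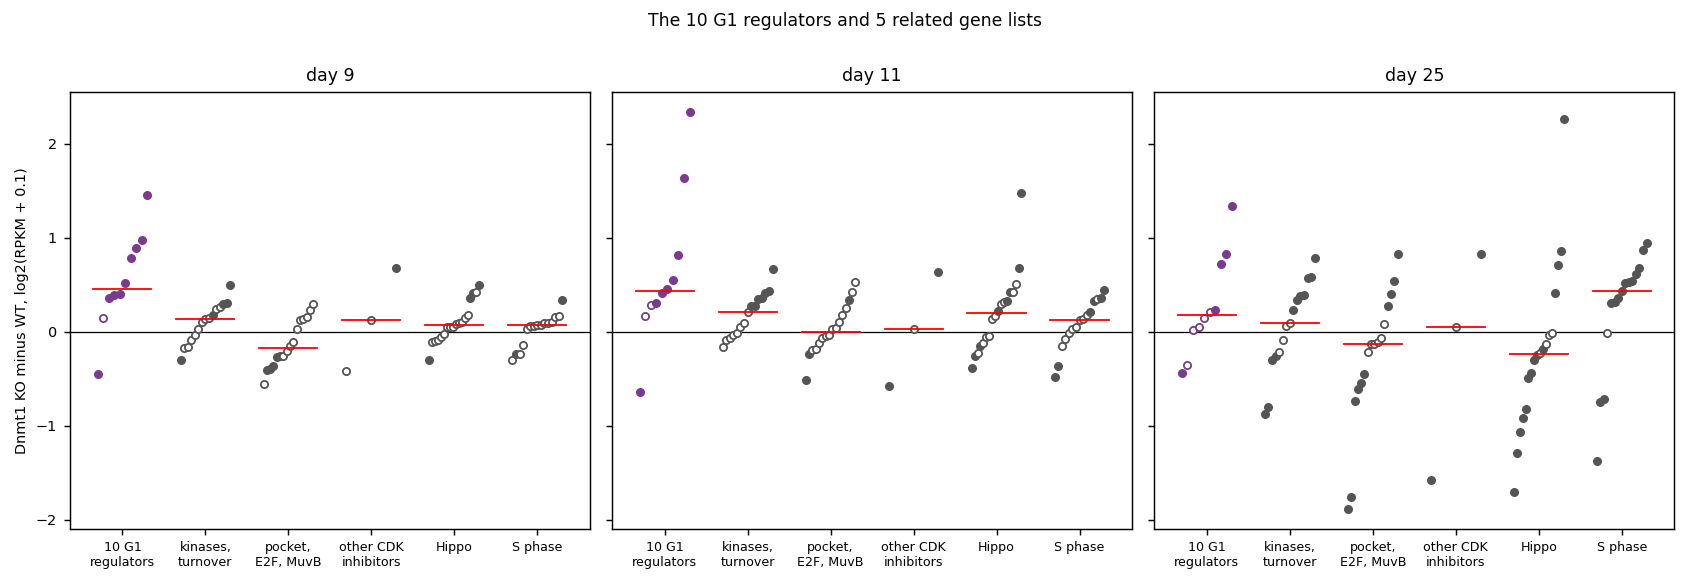
Difference of *Dnmt1* KO minus WT on the log2(RPKM + 0.1) scale at days 9, 11 and 25 for the 10 genes and for each gene of 5 related lists, sorted within a list, with filled points for a limma adjusted p below 0.05 and a red line at the median. The 10 genes have medians of 0.46, 0.43 and 0.18, and the S phase list moves from 0.07 at day 9 to 0.44 at day 25.

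The *Dicer* KO library was set beside the 6 WT libraries of days 11, 17 and 25, which share its high exon share. With a single library there was no test, and values are a description, with differences on the log2(RPKM + 0.1) scale against the mean of the 6. *Dicer* cuts the precursors of miRNAs, and the mature forms of the families most tied to G1 genes are shown with their seed (bases 2 to 8) in capitals, from RefSeq. miR-294-3p and miR-302d-3p share a seed, that of miR-93-5p is shifted by 1 base, and miR-16-5p and let-7a-5p stand for other families.
miR-294-3p: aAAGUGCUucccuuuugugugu
miR-302d-3p: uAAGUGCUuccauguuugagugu
miR-93-5p: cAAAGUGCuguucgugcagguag
miR-16-5p: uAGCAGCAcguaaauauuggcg
let-7a-5p: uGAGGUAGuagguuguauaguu

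The DNA letters complementary to these seeds were searched on the transcript strand in 1 annotated 3′ untranslated region per gene (NCBIM37, 19915 genes). AGCACTT, for miR-294-3p and miR-302d-3p, was found in 4 of the 10 genes and in 11.8% of all genes. The 4 were *Ccnd1*, *Ccnd2*, *Rbl2* and *Lats2*, with 2 matches in *Lats2*. GCACTTT, for miR-93-5p, which overlaps AGCACTT in *Ccnd1* and *Ccnd2*, was found in 3 (9.95% of all genes), TGCTGCT, for miR-16-5p, in 7 (3400 of the 19915 genes) and CTACCTC, for let-7a-5p, in 0 (7.39%). The regions differ in length, from 323 bases in *Cdkn2a* to 4556 in *Ccnd2*, and a longer one holds more matches. The AGCACTT matches are printed with up to 30 bases of transcript and the match in capitals. Whether a miRNA acts at any of these matches was not tested. They lie at chr7:152117571-152117600 (minus strand, *Ccnd1*), chr6:127079348-127079377 (minus, *Ccnd2*), chr8:93647717-93647743 (plus, *Rbl2*), chr14:58309913-58309942 and chr14:58309814-58309843 (minus, *Lats2*) of NCBIM37.
Ccnd1: attccatttcaaAGCACTTttggtcagcta
Ccnd2: ttccattagaaaAGCACTTtgaaaattttg
Rbl2: atttttcaataaAGCACTTataaatta
Lats2 first: cagtatggaaagAGCACTTattttgtggat
Lats2 second: gttgtatctgatAGCACTTgtccacagcta

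In the *Dicer* KO library 7 of the 10 genes were more than 1 log2 unit above the mean of the 6 WT libraries, as were 14.4% of all genes, and 1 was more than 1 log2 unit below (9.06% of all genes). Of the 10, 9 lay above all 6 WT libraries (31.6% of all genes) and *Ccne1* below all 6 (27.4%). *Ccnd2* had 7.21 RPKM in *Dicer* KO against 0.324 to 0.888 RPKM in WT, a difference of 3.40. *Cdkn2b* had 7.63 RPKM against 0.574 to 0.873 RPKM (3.30), and *Cdkn2a* 10.7 RPKM against 0.606 to 1.89 RPKM (3.12). These 3 genes were thus 8.12, 8.74 and 5.68 times the highest WT library.

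*Lats2* had 7.77 RPKM in *Dicer* KO against 1.39 to 1.90 RPKM in WT (2.11) and *Rbl2* 2.93 RPKM against 0.626 to 1.21 RPKM (1.56). *Ccnd1* had 46.8 RPKM against 6.001 to 22.2 RPKM (1.80) and *Ccne2* 15.7 RPKM against 4.90 to 9.47 RPKM (1.21). *Ccnd3* (28.4 RPKM against 10.2 to 19.3 RPKM, 0.90) and *Cdkn1b* (4.23 RPKM against 1.64 to 3.70 RPKM, 0.79) were higher by less than 1 log2 unit. *Ccne1* had 16.3 RPKM against 26.7 to 59.3 RPKM (-1.43). The 4 genes with AGCACTT had differences of 3.40, 2.11, 1.80 and 1.56, and the 6 without it had 3.30 (*Cdkn2b*), 3.12 (*Cdkn2a*), 1.21 (*Ccne2*), 0.90 (*Ccnd3*), 0.79 (*Cdkn1b*) and -1.43 (*Ccne1*). TGCTGCT was in these 4 genes and in *Cdkn2b*, *Ccnd3* and *Ccne1*, so its 7 carriers ranged from -1.43 to 3.40. *Cdkn2a*, *Ccne2* and *Cdkn1b* were without it. The part of miRNAs in these differences was not tested.

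Of the related genes, *Cdkn1a* had 27.9 RPKM in *Dicer* KO against 5.06 to 11.8 RPKM in WT (1.71) and *Lats1* 7.41 RPKM against 1.86 to 3.46 RPKM (1.38). *Cdkn1c*, from the same list of other CDK inhibitors as *Cdkn1a*, went the other way (-2.54). Of the 16 pocket protein, E2F and MuvB genes, 1 was higher by more than 1 log2 unit (*Lin37*, 1.42) and 2 were lower (*E2f4*, -1.07, and *E2f8*, -1.003). None of the 15 kinases and turnover genes and none of the 15 S phase genes differed by more than 1 log2 unit. Of the 18 Hippo genes 1 was lower by more than 1 log2 unit (*Tead2*, -2.06) and 9 were higher, led by the targets *Ankrd1* (5.09), *Cyr61* (3.01) and *Ctgf* (2.86). *Dicer1* RNA itself was 4.01 RPKM, within the WT range of 3.91 to 8.57 RPKM, so its level did not check the label. *Lin28a*, an ESC marker, was at 0.443 RPKM (40 reads) against 48.2 to 78.3 RPKM in WT, while *Pou5f1*, *Sox2* and *Nanog* were at 128, 59.6 and 107 RPKM. Fibroblast markers were high in this library, with *S100a4* at 245 RPKM and *Col5a2* at 14.4 RPKM, *Lum* at 0.0748 RPKM (4 reads) and *Dcn* at 0.381 RPKM (19 reads), and their part in these differences was not tested.

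**Figure D5:**
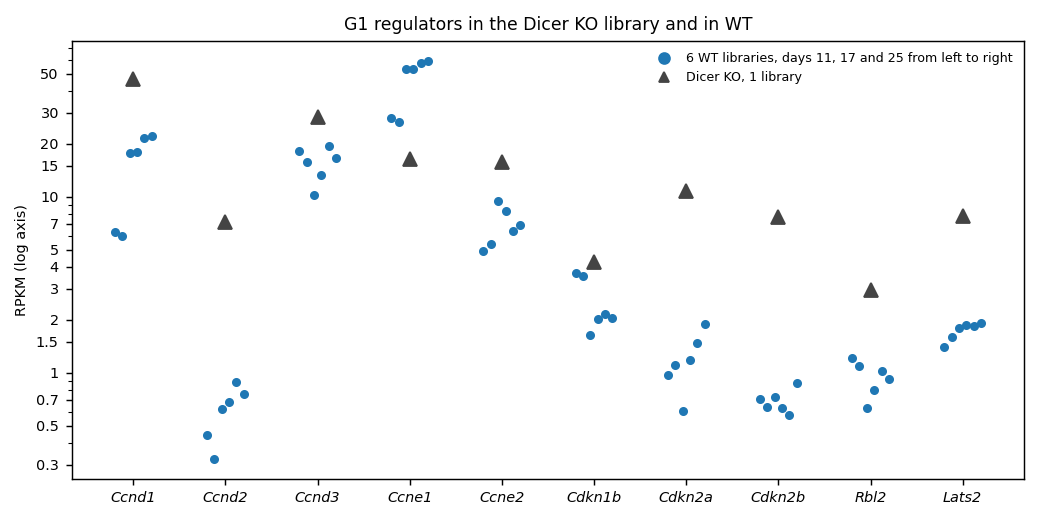
RPKM on a log axis of the 10 genes in the *Dicer* KO library (triangle) and in the 6 WT libraries of days 11, 17 and 25 (points, by day from left to right). The triangle lies above all points for 9 genes and below them for *Ccne1*, 16.3 against 26.7 to 59.3 RPKM.

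In NCBIM37, *Ccnd1* lies at chr7:152115836-152125774, *Ccnd2* at chr6:127075797-127101066, *Ccnd3* at chr17:47642000-47736632, *Ccne1* at chr7:38883003-38892553 and *Ccne2* at chr4:11118498-11131926. *Cdkn1b* lies at chr6:134870419-134875531, *Rbl2* at chr8:93593956-93647743 and *Lats2* at chr14:58260914-58377225. Some rows could hold reads of other genes. Exons of *Ccnd1*, *Ccnd3*, *Ccne2* and *Rbl2* overlap those of *Oraov1*, *Bysl*, *Ints8* and *Aktip* on the opposite strand over 818, 353, 609 and 693 bases, between 9.95% and 21.3% of their exon length. Libraries were stranded, but the sources used here do not say whether counting used strand. *Lats2* shares 332 bases with *Xpo4* on its own strand, 4.55% of its exon length.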

How the data were processed

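RNA was measured in 35 libraries of mouse ESCs by stranded total RNA-seq after depletion of ribosomal RNA. Per the study's methods and the submitters' processing notes, reads were trimmed with Trim Galore, mapped to NCBIM37 with TopHat and quantified in SeqMonk. The versions in the notes are Trim Galore 0.3.5 and TopHat2 2.0.11, whereas the study's methods list a later version of Trim Galore. The methods name log2 RPM, but the values deposited by the authors are linear RPKM per gene, and 99.5% to 99.7% of values below 20 reads were within 0.1 of whole reads when multiplied back through exon length. Counting error is therefore large for genes with few reads.

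The values were tested with limma 3.58.1 in R 4.3.3 on log2(RPKM + 0.1), with a trend, a mean per genotype and day and a spread pooled over 32 libraries, for 11594 genes above 1 RPKM in at least 2 of these. P-values were adjusted by Benjamini-Hochberg over these genes, two-sided, with a threshold of 0.05. In simulated data with 200 changed genes, 198 of them tested, 95.5% were called for the comparison of day 9 among 11185 genes tested. Of the genes called there, 5.5% were false calls. The simulated reads had the same spread beyond counting error in all genes and groups. The share of false calls where groups differ in spread was therefore not tested. Simulated rises of 1 log2 unit had a median fitted difference of 0.939 in that comparison. Most differences of the members were smaller, and the share called at such sizes was not tested. The third day 1 pair was left out of the fit and day 6 out of the mean over days. The *Dicer* KO library, alone in its group, was compared without a test, with a threshold of 1 log2 unit.

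The 10 genes, the 5 related lists and the marker lists were chosen with earlier results of these data known. All 10 genes are named, and of the related genes those with the largest differences among those called, besides a fixed set (*Cdkn1a*, *Cdk2*, *Cdk4*, *Cdk6*, *Rb1*, *Rbl1*, *Lats1*). Alternatives were another pseudocount, no filter, median centring, the third day 1 pair kept, fits of the compared groups alone, a replicate block, voom on recovered reads, day 6 kept and leaving out each library. Same-numbered KO and WT libraries of a day were checked for shared deviations, and the numbers were not taken as pairs. For miRNA matches, the transcript with the longest coding sequence and then the longest 3′ untranslated region was used.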

Additional observations from a re-analysis of the deposited data

Results flagged for a closer look

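For 6 of the 10 genes the difference between *Dnmt1* KO and WT itself differed between days 25 and 9 by limma's test of that difference. It changed by -0.87 for *Ccnd1* (SE 0.172, limma adjusted p 0.0003641), by -1.33 for *Ccnd2* (SE 0.270, limma adjusted p 0.0005052), by -0.47 for *Ccnd3* (SE 0.192, limma adjusted p 0.04857) and by -0.84 for *Ccne1* (SE 0.105, limma adjusted p 3.377e-06). It changed by 0.43 for *Ccne2* (SE 0.140, limma adjusted p 0.0155) and by 0.69 for *Cdkn1b* (SE 0.128, limma adjusted p 0.0002243). *Ccne1* was higher in both KO libraries at day 9 and lower in both at day 25, and *Cdkn1b* was lower in both at day 9 and higher in both at day 25. *Ccnd3* lost the call when any 1 of 7 of the 8 libraries was left out, all but WT day 25 replicate 2, and *Ccne2* without KO day 9 replicate 2 or WT day 25 replicate 1. None of the 6 was called with the third day 1 pair in the fit, which called 7.25% of all genes against 49.1% without it. The exon share was 21.4% to 21.8% at day 9 and 44.7% to 49.9% at day 25. The fibroblast marker sum was 21.3 to 25.23 RPKM in WT and 50.02 to 57.0 RPKM in KO at day 9, and 1.90 to 1.94 RPKM and 2.52 to 2.84 RPKM at day 25. Their part in these changes was not tested.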

How the results depend on the processing

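With the third day 1 pair kept, the members called numbered 0 at day 3, 1 at day 6, 1 at day 9, 3 at day 11, 2 at day 17, 2 at day 25, 4 for the mean over days, 0 for day 25 against day 9, 0 for WT day 9 against day 0 and 3 for WT day 25 against day 11. The share of all genes called under this setting was 0.663%, 2.84%, 3.29%, 5.62%, 10.4%, 20.9%, 18.9%, 7.25%, 0.0947% and 28.7% in the same order. Fits of the compared groups alone called 2 at day 11 and 3 at day 17, beside 3.42% and 28.1% of all genes. For WT day 9 against day 0, 0 were called with pseudocount 1 or no filter and 1 with median centring or voom. Leaving out single libraries gave 1 to 3 at day 3 (3 without WT replicate 1, 2 without KO replicate 1, 1 without WT replicate 2 and 2 without KO replicate 2) and 0 to 1 for WT day 9 against day 0. *Ccne1*, at 0.04 for the mean over days, was -0.077 with day 6 kept as labelled (limma adjusted p 0.0408), the only called value that changed sign. The same setting ended the calls of that mean for *Ccnd1* (0.28 to 0.10, limma adjusted p 0.1023) and *Cdkn1b* (-0.19 to -0.07, limma adjusted p 0.1253). Median centring ended the calls of *Ccnd3* at day 3 (limma adjusted p 0.0509) and for day 25 against day 9 (limma adjusted p 0.0658) and made one of *Cdkn1b* at day 3 (-0.29, limma adjusted p 0.04646).

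Same-numbered libraries of a day had correlations of -0.15 to 0.26, over 0.1 at 1 of 8 days, so the numbers do not pair them. With a replicate block the members called were 5 at day 3, 9 at day 9, 7 at day 11, 5 at day 17, 5 at day 25 and 9 for the mean over days. Under the block *Ccnd3* at day 3, *Lats2* at day 11 and *Ccnd3* for day 25 against day 9 lost their call and *Ccnd1* at day 3 gained one. *Cdkn2a* and *Cdkn2b*, with as few as 18 and 19 reads in a library, are the members most limited by depth.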
